A study of Mus musculus with 2 samples.

Results

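The genes of the 4 mouse Hox clusters were examined in primary osteoblasts from Slc39a13-KO and wild-type mice. Members were all probe sets annotated to exactly 1 gene symbol made of Hox, a cluster letter from a to d and a paralog number, which gave 48 probe sets for 33 genes, of 34945 probe sets for 18193 genes with 1 symbol. Hox genes with no probe set of their own in the annotation used here were not analysed. The series holds 2 arrays, 1 of cells from Slc39a13-KO mice, which carry a germline deletion of part of the gene for the zinc transporter SLC39A13/ZIP13, and 1 of cells from wild-type mice, and the labels name no agent added to either culture. The cells were released by enzymes from the calvaria, the bony roof of the skull, of newborn pups and then cultured, and the number of pups, their sex and their strain are not given for these arrays in the sources used here. Because each genotype was read on 1 array, no difference below has a replicate check, and no p-value was computed.

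Hox proteins are homeodomain transcription factors that give cells their position along the body axis. The genes sit in 4 clusters, Hoxa on chromosome 6, Hoxb on chromosome 11, Hoxc on chromosome 15 and Hoxd on chromosome 2, and those of equal number in different clusters, the paralogs, resemble each other most. Low-numbered genes act from the hindbrain and pharyngeal arches backwards, and high-numbered genes act in the lumbar, sacral and tail regions and in the outer limb. The neural crest cells that form the front of the skull and most of the face come from a region in front of the Hox domains and normally lack Hox expression, while the parietal bones of the skull roof come mainly from head mesoderm.

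Both arrays had the same 2% trimmed mean signal (500.003), so their overall signal was alike by scaling and does not compare total mRNA. The median signal was 92.6 in the Slc39a13-KO array and 78.2 in the wild-type array, in the arbitrary units of MAS5. Signals below 85.1, the 50th percentile of all signals of both arrays and called the floor here, were raised to it, and a gene was measured if a probe set of it exceeded the floor in at least 1 array. A gene was called higher or lower at a mean difference of at least 2-fold with all its measured probe sets on 1 side. Slc39a13 had a signal of 90.4 in the Slc39a13-KO array and 1309 in the wild-type array, which goes with the labels, although where its 1 probe set lies relative to the deletion was not established here. The type I collagen chain Col1a2 and Sparc, abundant in bone cells, were far above the floor in both arrays (25943 and 49640 in the Slc39a13-KO array, 28503 and 40038 in the wild-type array), whereas Phex and Ibsp, genes of mineralising osteoblasts and osteocytes, were below it. Of 10 osteoblast markers with a probe set, 8 were above the floor in the Slc39a13-KO array and 6 in the wild-type array. Of the 8 measured, 4 were called higher and 0 lower, against 8.01% and 5.93% of all measured genes. Omd had 24251 in the Slc39a13-KO array and 357 in the wild-type array, and Pth1r had 1534 and 295.1. Dmp1 and Alpl had 383 and 197.4 in the Slc39a13-KO array and were below the floor in the wild-type array. In these bulk cultures fewer cells of a type and less RNA per cell cannot be told apart.

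Most Hox genes were near or below the floor in both arrays. Of the 33 genes, 12 (36.4%) were measured, against 67.4% of all genes with a probe set. Of the 48 probe sets, 4 were above the floor in both arrays, 6 in the Slc39a13-KO array alone, 6 in the wild-type array alone and 32 in neither. The median unfloored signal of the Hox probe sets was 26.6 in the Slc39a13-KO array and 32.2 in the wild-type array, against 138.2 and 115.8 for all probe sets with 1 symbol. The highest Hox signal was 653 in the Slc39a13-KO array and 355 in the wild-type array.

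The share of genes measured was highest in the front part of the clusters and lowest in the rear part. In paralog groups 1 to 3, 4 of 7 genes were measured, in groups 4 to 8 it was 5 of 12, and in groups 9 to 13 it was 3 of 14. The last 3 were all in group 9, where 3 of 4 genes were measured. In groups 10 to 13, which act in the hindmost trunk and the outer limb, 0 of 10 genes were measured, and Hoxa10, Hoxa11, Hoxa13, Hoxb13, Hoxc10, Hoxc13, Hoxd10, Hoxd11, Hoxd12 and Hoxd13 stayed below the floor in both arrays. The other genes not measured were Hoxa4, Hoxb1, Hoxb5, Hoxb6, Hoxb7, Hoxb9, Hoxc4, Hoxc5, Hoxc8, Hoxd1 and Hoxd3. By cluster, 5 of 9 Hoxa genes, 3 of 9 Hoxb genes, 2 of 7 Hoxc genes and 2 of 8 Hoxd genes were measured. Nearest below the floor were Hoxa13 and Hoxa11, with 82.4 and 78.2 in the Slc39a13-KO array and 44.1 and 49.1 in the wild-type array. A value below the floor does not show that a gene was silent.

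**Figure D1:**
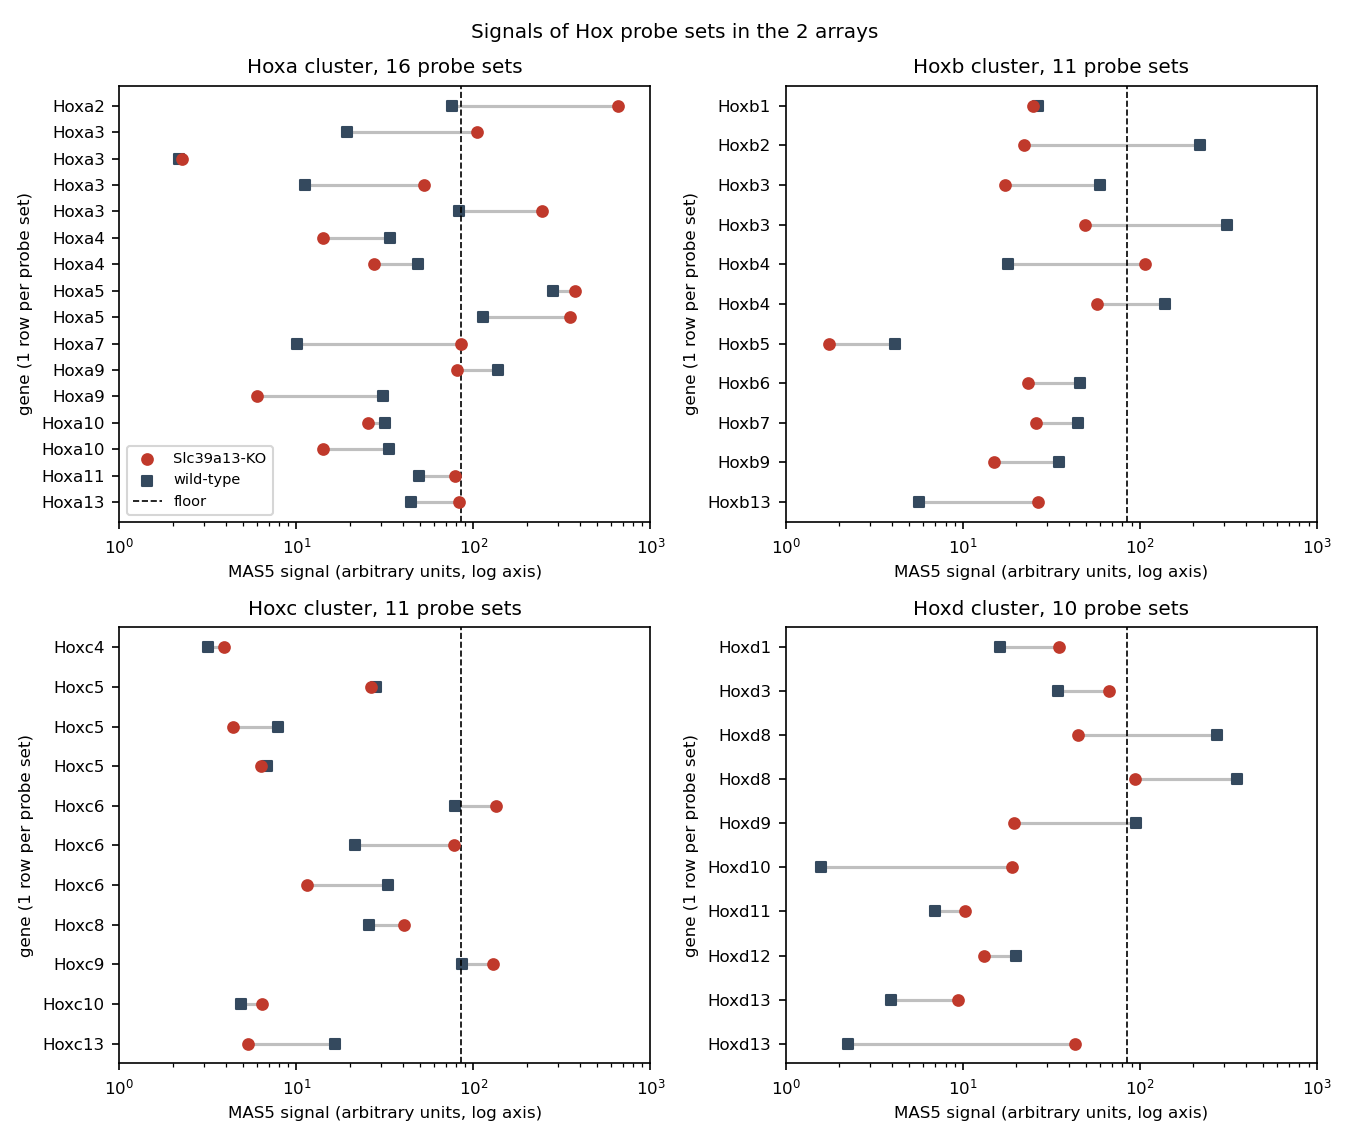
MAS5 signals (horizontal axes, arbitrary units, log scale) of the 48 Hox probe sets, 1 row each in paralog order, with red circles for the Slc39a13-KO array, dark squares for the wild-type array and a dashed line at the floor of 85.1. Most rows lie wholly left of the floor, Hoxa2, Hoxa3 and Hoxa5 reach furthest right in the Slc39a13-KO array, and Hoxa5, Hoxb3 and Hoxd8 in the wild-type array.

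Among the measured genes, 2 were called higher in the Slc39a13-KO array, Hoxa2 and Hoxa5, and 3 were called lower, Hoxb2, Hoxb3 and Hoxd8. Over all measured genes of the arrays 8.01% were called higher and 5.93% lower, shares that became 5.34% and 8.58% with median scaling, 6.32% and 6.98% with quantile and 6.24% and 7.10% with loess normalization, and 45.8% and 1.748% with scaling on poly-A spike-in controls. Since a gene of low signal counts as measured only through the array in which it is brighter, the calls are also given over all genes with a probe set, where they were 2 of 33 Hox genes (6.06%) higher against 5.4% of all genes, and 3 of 33 (9.09%) lower against 4% of all genes. Over measured genes alone, 5 of 12 Hox genes (41.7%) were called in either direction, against 13.9% of all measured genes. This comparison is open to the selection through the brighter array. The counts are small, and whether the Hox genes differ from the rest was not tested. Among measured genes no brighter than the brightest Hox probe set, 7.82% were called higher and 5.28% lower. The median log2 ratio (Slc39a13-KO minus wild-type) of the measured Hox genes was -0.08, against 0.11 for all measured genes. Its sign was not stable, since it became 0.19 with a floor at the 30th percentile and 0.18 with one at the 70th.

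The direction of the calls differed between clusters. Both genes called higher belong to Hoxa, where 4 of 5 measured genes had a positive log2 ratio, although that of Hoxa7 was close to 0. In Hoxb and Hoxd, by contrast, all 5 measured genes had negative ratios and 3 of them were called, whereas the 2 measured Hoxc genes had positive ratios and were not called. The median log2 ratio was 0.90 for Hoxa, -1.36 for Hoxb, 0.61 for Hoxc and -0.99 for Hoxd, each over only 2 to 5 genes. Whether the clusters differ could not be tested with 1 array per genotype. The medians also rest on the floor. A signal at the floor entered 4 of 5 Hoxa values, 3 of 3 Hoxb, 1 of 2 Hoxc and 2 of 2 Hoxd. The Hoxd median moved to 7.2e-05 on lowering the floor to the 30th percentile and to 0.76 on removing it. The Hoxa median was also 0.90 with no floor, but over a different set of genes. It was then the value of Hoxa13, below the floor in both arrays, among all 9 Hoxa genes. Without the floor Hoxa2, Hoxa3, Hoxa5 and Hoxa7 were called higher and Hoxa4 and Hoxa9 lower. The Hoxa median was 0.41 by the brightest probe set and 1.51 without suffixed probe sets.

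**Figure D2:**
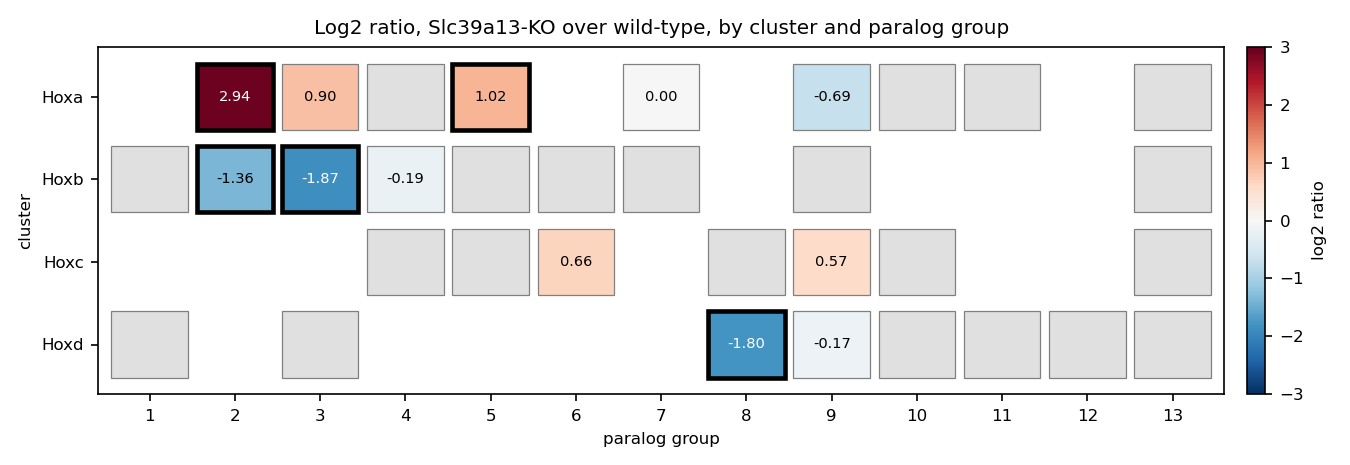
Log2 ratio of Slc39a13-KO over wild-type (colour scale, and the number in each square) for Hox genes by paralog group (horizontal axis) and cluster (vertical axis); heavy outlines mark genes called at 2-fold, plain grey squares mark genes below the floor in both arrays, and blank positions were not analysed or hold no gene. Red squares are confined to Hoxa and Hoxc, and the blue squares called are Hoxb2, Hoxb3 and Hoxd8.

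Hoxa2 patterns the second pharyngeal arch, and mice without it form a second set of first-arch skeletal elements in its place. Its 1 probe set had a signal of 653 in the Slc39a13-KO array and 75.4 in the wild-type array, below the floor. Hoxa2 thus stood higher by at least 7.68-fold in Slc39a13-KO cells. It was the 1 Hox gene called under each of the 10 alternative ways of processing, with log2 ratios from 1.03 to 3.38. With 1 probe set and no suffix, choosing among probe sets or calling by the mean alone could not change its value.

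Hoxa5 acts in the neck and upper chest and in the developing lung. One probe set had a signal of 351 in the Slc39a13-KO array and 113.9 in the wild-type array, a 3.08-fold difference, and the other, with a suffix that marks possible cross-hybridisation, had 373 and 280.5, a 1.33-fold difference. All 4 signals were above the floor and both probe sets were brighter in the Slc39a13-KO array, but the sizes disagreed. The mean log2 ratio was 1.02 (SD 0.86 between 2 probe sets), just past the threshold. Hoxa5 was called higher under 5 of the 10 alternatives, and the other choices took it below 1. Scaling by medians, quantiles or loess gave 0.77, 0.82 and 0.81, the brightest probe set alone gave 0.41 and a floor raised to the 70th percentile gave 0.18. Poly-A scaling gave 1.96, and leaving out suffixed probe sets gave 1.62.

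Hoxa3, needed for thyroid, parathyroid and thymus and for throat cartilages, lay just short of the threshold. Its brighter probe set had a signal of 242.6 in the Slc39a13-KO array and 82.8 in the wild-type array, below the floor, so this probe set was at least 2.85-fold higher. A second, with a suffix that marks shared transcripts, had 104.3 in the Slc39a13-KO array and 19.2 in the wild-type array. Against the floor this is at least 1.23-fold, and the other probe sets were below the floor in both arrays. The mean log2 ratio was 0.90 (SD 0.86 between 2 probe sets), and Hoxa3 was called higher under 5 of the 9 alternatives that measured it. Hoxa2, Hoxa3 and Hoxa5 are near one another in the cluster, with Hoxa4 among them, and the 2 Hoxa4 probe sets were below the floor in both arrays, at 14.2 and 27.4 in the Slc39a13-KO array and 33.7 and 48.3 in the wild-type array.

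Hoxb2, which acts in the hindbrain in the specification of facial nerve neurons, had a signal of 22.3 in the Slc39a13-KO array and 218.4 in the wild-type array. With the first of these raised to the floor, Hoxb2 stood lower by at least 2.57-fold in Slc39a13-KO cells. It was called under 8 of the 9 alternatives that measured it, all but poly-A scaling (log2 ratio -0.78). As for Hoxa2, choosing among probe sets or calling by the mean alone could not change its value. Hoxb2 is the paralog of Hoxa2, and this pair differed in opposite directions.

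Hoxb3, a hindbrain and pharyngeal arch gene, showed the same direction as its neighbour Hoxb2. Its measured probe set had 49.3 in the Slc39a13-KO array and 311 in the wild-type array, at least 3.66-fold lower. Its second probe set was below the floor in both arrays (17.4 and 59.6). Hoxb3 was called lower under all 9 alternatives that measured it, with log2 ratios from -2.22 to -1.29. With no other probe set measured, choosing among probe sets or calling by the mean alone could not change its value.

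Hoxd8, a gene of the trunk axis, was read by 2 probe sets, both lower in the Slc39a13-KO array. One, with a suffix that marks shared transcripts, had a signal of 94.5 in the Slc39a13-KO array and 355 in the wild-type array. This was a 3.76-fold difference with both signals above the floor. The other had 44.8, below the floor, in the Slc39a13-KO array and 274.3 in the wild-type array, at least 3.22-fold lower. The mean log2 ratio was -1.80 (SD 0.16 between 2 probe sets). This closeness rests on the floor, since with no floor the SD was 0.50. The median SD between measured probe sets of 1 gene on these arrays was 0.34 with signals floored. Such spreads are technical and not between cultures. A floor raised to the 70th percentile left a ratio of -0.15, which is not called, and scaling on the poly-A controls brought it to -0.996, just short of the call. The Hoxd cluster lies on chromosome 2, as does Slc39a13.

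The promoters of the genes called at 2-fold are shown because they are the regulatory sequence next to the start of the transcripts that differed. RefSeq (GRCm38.p6) gave a start for 3 of the 5, and the 250 bases before it were read in the direction of transcription, Hoxa2 from chr6:52164832-52165081 (minus strand), Hoxa5 from chr6:52204588-52204837 (minus strand) and Hoxd8 from chr2:74704365-74704614 (plus strand). Capitals mark matches on either strand. The motif TGATTNAT is bound by Pbx together with Hox proteins, and the motif TGACAG is bound by proteins of the Meis family. The motif AGGTCA is the core element recognised by the receptors for retinoic acid. The motif TATAAA belongs to the TATA box that positions transcription, and the last motif was the CCAAT box.
Hoxa2: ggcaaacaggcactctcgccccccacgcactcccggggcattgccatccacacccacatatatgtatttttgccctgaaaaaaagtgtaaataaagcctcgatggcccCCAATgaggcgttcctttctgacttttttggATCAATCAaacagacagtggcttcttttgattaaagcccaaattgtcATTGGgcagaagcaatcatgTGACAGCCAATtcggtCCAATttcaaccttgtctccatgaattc
Hoxa5: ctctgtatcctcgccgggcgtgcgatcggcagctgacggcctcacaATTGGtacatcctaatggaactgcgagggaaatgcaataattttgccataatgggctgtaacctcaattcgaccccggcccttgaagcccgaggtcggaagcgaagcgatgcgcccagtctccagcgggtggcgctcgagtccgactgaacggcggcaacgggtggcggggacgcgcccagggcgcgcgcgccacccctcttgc
Hoxd8: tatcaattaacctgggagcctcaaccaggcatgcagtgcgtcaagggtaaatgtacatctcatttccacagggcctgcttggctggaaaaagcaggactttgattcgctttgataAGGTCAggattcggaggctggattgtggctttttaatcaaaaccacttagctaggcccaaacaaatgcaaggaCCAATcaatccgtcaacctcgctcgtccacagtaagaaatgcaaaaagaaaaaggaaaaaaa

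The Hoxa2 window held the motifs of Hox cofactors that the other two lacked. A Pbx-Hox match began 111 bases and a Meis match 44 bases before the start, and 4 CCAAT matches began 142, 64, 38 and 28 bases before it, of which that at 38 directly follows the Meis match with no shared base. The Hoxa5 window held 1 CCAAT match, 204 bases before the start, and the Hoxd8 window held 1 CCAAT match at 62 bases and 1 retinoic acid receptor match at 135 bases. Over 32851 windows of the same length, the Pbx-Hox motif was found in 2.82%, the Meis motif in 15.9%, the retinoic acid receptor motif in 14.02%, the TATA motif in 12.4% and the CCAAT motif in 33.8%. Over the 24 windows of 22 Hox genes, the shares were 8.33%, 8.33%, 25% (6 windows), 16.7% and 58.3% (14 windows). The Hoxa5 window was rich in CG pairs, with 28 of them against 6 in each of the Hoxa2 and Hoxd8 windows, a median of 12.5 over the Hox windows and a median of 6 over all windows. A match describes the letters of the window and not binding.

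The remaining measured Hox genes were close to the floor and were not called. Hoxa9, a gene of the lower back and of blood progenitors, had 80.6 in the Slc39a13-KO array and 136.8 in the wild-type array, a log2 ratio of -0.69 that turned to 0.26 with poly-A scaling. Hoxa7 exceeded the floor only barely, with 85.2 in the Slc39a13-KO array and 10.1 in the wild-type array. Hoxd9, which acts in the lower back and the limb, had 19.5 in the Slc39a13-KO array and 95.8 in the wild-type array. That these genes were not called depends on the floor. With the floor at the 30th percentile Hoxa7 was called higher (log2 ratio 1.29) and Hoxd9 lower (-1.46). With no floor Hoxa7 was called higher (3.07), and Hoxd9 (-2.30) and Hoxa9 (-1.57) lower.

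The 2 measured Hoxb4 probe sets disagreed in direction. One had 107.4 in the Slc39a13-KO array and 18.0 in the wild-type array, and the other 57.4 in the Slc39a13-KO array and 139.3 in the wild-type array. The gene mean of -0.19 (SD 0.74 between 2 probe sets) therefore has no settled sign, and it was positive on poly-A scaling, on lowering the floor to the 30th percentile and on removing it.

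Of the Hoxc genes, which pattern the chest and loins, Hoxc6 had 134.2 in the Slc39a13-KO array and 78.2 in the wild-type array on its measured probe set, and Hoxc9 had 128.3 in the Slc39a13-KO array and 86.7 in the wild-type array. The log2 ratios were 0.66 and 0.57. Hoxc9 was the 1 measured gene besides Hoxa5 with all its measured signals above the floor in both arrays, if only just in the wild-type array.

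Paralogs could be compared where 2 or more clusters were measured. In group 2, Hoxa2 was higher and Hoxb2 lower in the Slc39a13-KO array. In group 3, Hoxa3 had a log2 ratio of 0.90 and Hoxb3 was called lower at -1.87, with Hoxd3 below the floor in both arrays. In group 9 the ratios were -0.69 for Hoxa9, 0.57 for Hoxc9 and -0.17 for Hoxd9, all short of the threshold, and Hoxb9 was not measured.

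Hox proteins bind DNA together with cofactors of the TALE homeodomain families Pbx, Meis and Pknox. For these and the lists that follow, the shares over all measured genes were 8.01% higher and 5.93% lower. Of 8 cofactors with a probe set, 7 were measured, 1 was called higher and 0 lower, with a median log2 ratio of 0.64, and 3 of the 7 values rest on a signal at the floor. The gene called was Meis2. Its mean signal over 4 probe sets, floored, was 1485 in the Slc39a13-KO array and 217.6 in the wild-type array, at least 6.82-fold higher. The log2 ratio was 2.77 (SD 0.73 between 4 probe sets), and 1.87 without probe sets of shared-transcript suffix. Meis1 had 242.7 in the Slc39a13-KO array and 135.2 in the wild-type array and was not called, but it passed the threshold with a floor at the 70th percentile (log2 ratio 1.08), poly-A scaling (1.67) and the brightest probe set (1.62). Pbx3 had 431 and 806, a log2 ratio of -0.90 that passed the threshold with median (-1.14), quantile and loess (-1.01 each) scaling and was 0.12 on the poly-A controls. The 1 cofactor not measured was Pbx4.

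Few regulators of Hox chromatin were called. Polycomb proteins keep Hox genes silent, and of 17 measured genes of this group 0 were called in either direction, with log2 ratios from -0.41 to 0.86 (3 were called higher with no floor). The methyltransferase Ezh2 had 862 in the Slc39a13-KO array and 620 in the wild-type array, and Bmi1 had 2411 and 1846. Of 11 measured Trithorax-side genes, which keep Hox genes active, 1 was called higher and 0 lower. It was Kdm6a, a demethylase that removes the Polycomb mark. Its floored mean signal was 410 in the Slc39a13-KO array and 144.7 in the wild-type array, 2.83-fold higher. The SD was 1.18 on the log2 scale between 3 probe sets, and this ratio rests on a signal at the floor. With no floor the log2 ratio of Kdm6a was 1.29 and it was not called, which left 0 of 12 genes of this list higher. The MLL gene Kmt2a had 407 in the Slc39a13-KO array and 331 in the wild-type array. Relative to the poly-A controls instead, 12 of 17 Polycomb, 9 of 11 Trithorax-side and 5 of 7 cofactor genes were called higher and 0 lower, with 45.8% of all measured genes higher. The 6 ParaHox and caudal genes, relatives of the Hox genes that include Cdx2, were below the floor in both arrays.

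The genes flanking the clusters did not share one direction with the Hox genes beside them. Against 8.01% higher and 5.93% lower over all measured genes, 1 of 11 measured genes beside the clusters was called higher and 0 lower. It was Skap2, an adaptor protein of immune cell signalling and the nearest protein-coding gene outside one end of Hoxa, with 1788 in the Slc39a13-KO array and 581 in the wild-type array, 3.08-fold higher (log2 ratio 1.62, SD 0.46 between 3 probe sets). Hibadh, beyond Evx1 at the opposite end, had 2722 in the Slc39a13-KO array and 2209 in the wild-type array. Skap1 next to Hoxb1 and Mtx2 next to Hoxd1 had 157.3 and 1269 in the Slc39a13-KO array and 147.2 and 1952 in the wild-type array and were not called. Of 3 antisense genes of the clusters with a probe set, Hoxb5os alone was measured, with 105.7 in the Slc39a13-KO array and 101.1 in the wild-type array. Probe sets shared by Hoxd3 and Hoxd4 or by Hoxb7 and Hoxb8, which the selection left out, were below the floor in both arrays.

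Retinoic acid induces low-numbered Hox genes in the embryo, and genes of its pathway differed in both directions. Of 13 measured genes 2 were called higher and 4 lower. Aldh1a1, an enzyme of retinoic acid synthesis, had 622 in the Slc39a13-KO array and 7355 in the wild-type array, 11.8-fold lower, and the degrading enzyme Cyp26b1 was 3.20-fold lower, a call lost with poly-A scaling (log2 ratio -0.66). The receptor Rarg was 2.37-fold higher, and just missed the call with median scaling, which, like leaving out suffixed probe sets, left 0 genes of the pathway higher. On the poly-A controls 5 of 12 measured genes of the pathway were higher and 3 lower.

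Other genes of head and trunk position differed in both directions. Of 20 trunk and limb position genes with a probe set, 8 were measured, 1 was called higher and 6 lower, and 7 of the 8 values are bounds. Tbx15, a regulator of skeletal size, had 1225 in the Slc39a13-KO array and 399.6 in the wild-type array, 3.07-fold higher, and Emx2, which patterns the shoulder blade, was below the floor in the Slc39a13-KO array and had 421 in the wild-type array, at least 4.95-fold lower. Of 13 measured head patterning genes, 2 were called higher and 4 lower. Zic1 was at least 12.5-fold and the neural crest factor Tfap2b at least 10.1-fold lower, whereas Foxc1 was 3.74-fold higher. These named directions held under the scalings tried, although Tbx15 was not called by its brightest probe set or without suffixed probe sets (log2 ratio 0.81 in each case), nor Emx2 with a floor at the 70th percentile (-0.40). On the poly-A controls 5 of 13 head genes were higher and 3 lower, against 1 higher and 4 lower of 11 trunk and limb genes.

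**Figure D3:**
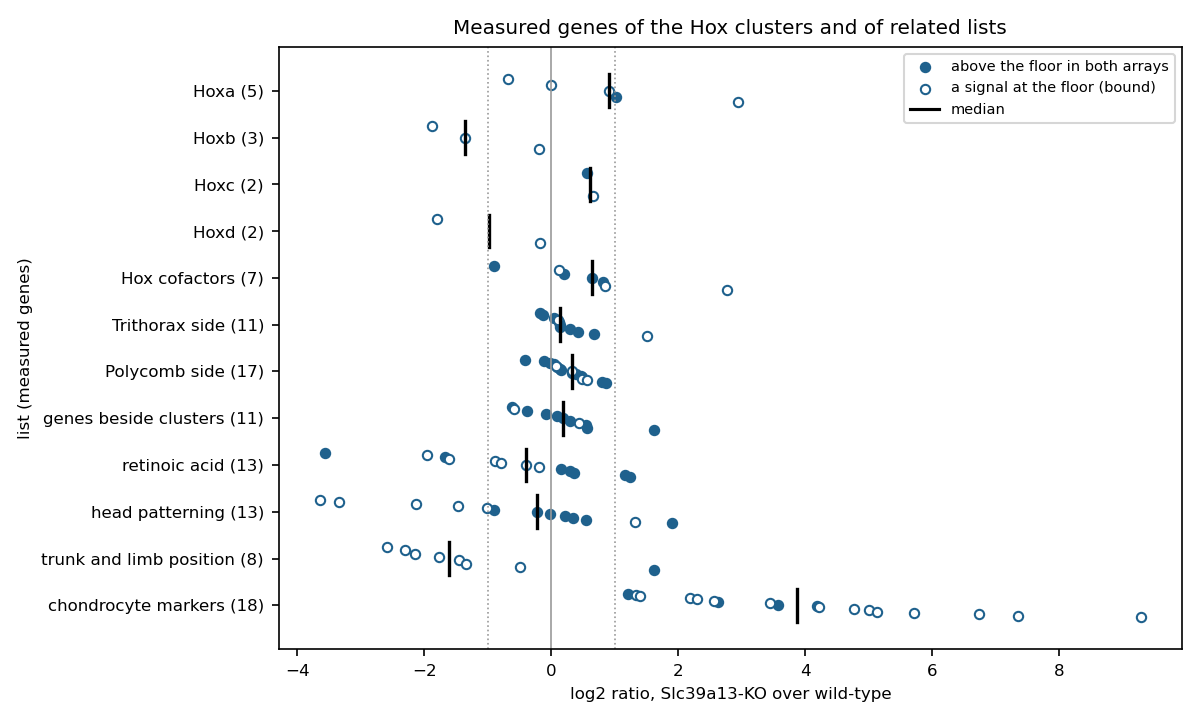
Horizontal axis, log2 ratio (Slc39a13-KO over wild-type), for measured genes of each Hox cluster and of related lists (rows, number of measured genes in brackets), with filled points above the floor in both arrays, open points for genes with a signal at the floor, black lines at medians and dotted lines at 2-fold. Polycomb-side genes stay within the dotted lines, Hoxa2 and Meis2 lie beyond 2 on the right, and all 18 chondrocyte markers lie right of the 2-fold line.

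Markers of other cell types differed between the same 2 arrays and are given beside these values. Of 19 chondrocyte markers 18 were measured and all 18 were called higher (17 with median or loess scaling), and 14 of the 18 values are bounds. With a floor at the 30th percentile 17 of 19 measured were called higher, at the 70th 12 of 16, and with no floor 16 of 19. The summed signal of this list (brightest probe set of each gene) was 184793 in the Slc39a13-KO array and 8604 in the wild-type array, with 18 and 6 genes above the floor. Smooth muscle and pericyte markers ran the other way, with 7 of 11 measured called lower, 1 higher and summed signals of 33171 in the Slc39a13-KO array and 80349 in the wild-type array, but 2 lower and 2 higher on the poly-A controls. Macrophage and osteoclast markers counted 7 higher and 1 lower of 11 measured, and adipocyte markers 3 higher and 0 lower of 5. Of the few measured endothelial (5), epithelial (5), neural and glial (7) and skeletal muscle (3) markers, 2, 2, 3 and 2 were lower and 1, 1, 1 and 0 higher. The part of these cell types in the Hox values was not tested.

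**Figure D4:**
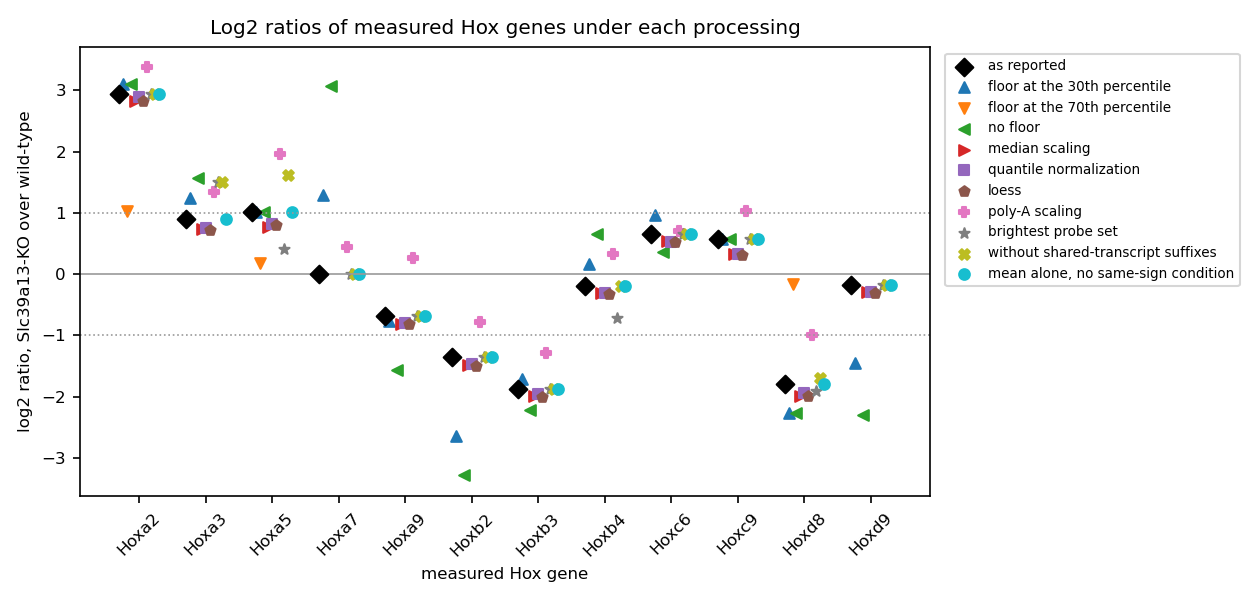
Log2 ratio of Slc39a13-KO over wild-type (vertical axis) for the 12 measured Hox genes (horizontal axis) as reported (black diamonds) and under 10 other ways of processing (coloured symbols), with dotted lines at 2-fold; a symbol is absent where the gene was then not measured. Hoxa2 stays above the upper line and Hoxb3 below the lower line wherever shown, whereas Hoxa5 crosses the upper line.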

How the data were processed

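Biotin-labelled cRNA made from total RNA of primary osteoblasts was read on Affymetrix whole-genome mouse arrays. The deposited values are linear signal intensities per probe set (a group of short oligonucleotides for 1 transcript), which the authors computed with MAS5 per the submitters' processing notes (version not given in the sources), while gcRMA is what the methods name. The 2% trimmed mean was 500.003 in both arrays, so differences in total mRNA cannot be seen. No detection calls were used. Of 45101 probe sets, 64 were controls, 34945 had 1 symbol, 932 several and 9160 none, and 34741 matched RefSeq by gene ID with 0 symbols differing.

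Signals were raised to the floor (50th percentile of both arrays), log2 was taken, and the mean log2 ratio, Slc39a13-KO minus wild-type, was computed over the measured probe sets of a gene (Python 3.11.15, pandas 2.3.3). A ratio with a signal at the floor is a bound. The threshold of 2-fold is that of the study. No test was possible, and the number of arrays limits the precision. Calling was checked on simulated data, with changes well above 2-fold placed only in genes brighter than any Hox probe set. That check does not show how well changes near the floor or near the threshold are called. All genes called, of a signal of at least 4 times the floor, or with probe sets that disagree were named, and for related lists only examples. Members and lists were chosen with earlier results of these data known. Alternatives were floors at the 30th and 70th percentiles and none, median, quantile, loess (statsmodels 0.14.6) and poly-A control scaling, the brightest probe set, probe sets without shared-transcript suffixes, and calls by the mean alone.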

Additional observations from a re-analysis of the deposited data

How the results depend on the processing

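All 24 probe sets for the poly-A controls, bacterial transcripts meant as spike-ins, gave less signal on the Slc39a13-KO array (median log2 ratio -1.02). Scaling on them moved the median of all genes to 0.94, against 0.11 as reported, and directions hold relative to most other genes. The 5 called Hox genes kept their sign under every alternative that measured them. Choosing among probe sets or calling by the mean alone could not alter Hoxa2, Hoxb2 and Hoxb3. With poly-A scaling 4 Hox genes were higher and 1 lower, the median was 0.36 (-0.58 against all genes, where it was -0.19 as reported), and the Hoxa, Hoxb and Hoxd medians were 0.44, -0.78 and -0.45; in groups 1 to 3, 2 were higher and 1 lower, in groups 4 to 8, 0 were lower, and in groups 9 to 13, 1 was higher. The median, quantile and loess scalings left 1 Hox gene higher, and 0 in groups 4 to 8, beside the 3 lower. With the floor at the 30th percentile 22 Hox genes were measured, 4 were higher, and the Hoxb and Hoxd medians were -0.38 and 7.2e-05. In groups 1 to 3, 2 were then higher; in groups 4 to 8, 9 were measured and 2 higher; in groups 9 to 13, 7 were measured and 1 lower. With the floor at the 70th percentile 3 were measured, 1 higher and 0 lower, with a Hoxd median of -0.15. The numbers measured in the 3 classes were then 1, 2 and 0, with 0 lower in groups 1 to 3, and 0 higher and 0 lower in groups 4 to 8. With no floor all 33 counted as measured, 8 higher and 9 lower, with medians of 0.37 (0.21 against all genes), -0.97 for Hoxb and 0.76 for Hoxd. Groups 1 to 3 then held 7 with 3 higher, groups 4 to 8 held 12 with 2 higher and 3 lower, and groups 9 to 13 held 14 with 3 higher and 4 lower; over all genes 16.9% were then higher and 11.3% lower. The brightest probe set gave a Hoxa median of 0.41, 2 higher in groups 1 to 3 and 0 in groups 4 to 8, and probe sets without suffixes gave 1.51 and 2 higher in groups 1 to 3. Calls by the mean alone changed none of these values. The causes were not tested beyond what a higher or lower floor does by construction. No paired analysis was possible because each genotype has 1 array, and no array could be left out. The Hox median against all genes and the counts of related lists under other scalings were added after seeing the data.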
